A study of Oryza sativa with 12 samples.

Results

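The cold response of the susceptible rice cultivar Sant'Andrea (S.AND) was described from anthers taken after a single night of treatment, over every gene model that reached 1 RPKM in the COLD or the CONTROL mean. RPKM is a length-scaled read density, and it was 24203 of 55985 gene models (43.2%) that met this rule. The 3 S.AND COLD samples came from plants kept 1 night at 8 °C and the 3 S.AND CONTROL samples from plants kept at 24 °C. The anthers were post-meiotic (anther stage 10), were collected when the lights came on, and each biological replicate pooled the anthers of several plants. Some cold-treated S.AND spikelets had whitish lemma and palea and damaged anthers. The paper reports that only anthers of normal anatomy went into its further experiments. No transgene or mutation is named for either group. The series also holds the cold-tolerant cultivar Erythroceros Hokkaido (ERY) under the same treatments, 12 samples in all, which was not needed for the ratios below, and no difference between the cultivars was tested. The deposited table gives 1 mean for each group, so the values below have no SD, the table holds no read depth per sample, and no ratio could be tested against the spread between replicates. Each log2 ratio is the log2 of the COLD mean over the CONTROL mean with no pseudocount, and a gene is called higher or lower when it passed a 2-fold ratio. Such a call describes a size, and it does not show that a gene responded.

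At stage 10 the rice anther holds microspores surrounded by the tapetum. This secretory layer feeds the microspores and exports the lipids and proteins of the pollen wall. Outer wall layers of the anther contain chloroplasts. Low temperature at this time is a well known cause of male sterility in rice, and plant cells answer cold through calcium influx, protein kinase cascades and transcription factors. In whole anthers, fewer cells of a type and less RNA per cell cannot be told apart.

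After the cold night most transcripts differed little: 68.5% of the genes differed by less than 1.5-fold, and the median log2 ratio was 0.00. At least 2-fold higher in COLD were 1312 genes (5.42% of those compared), and at least 2-fold lower were 2232 genes (9.22%), 14.6% in all. Of these, 271 were at least 4-fold higher and 409 at least 4-fold lower. The higher genes took 5.63% of all RPKM in COLD and 1.91% in CONTROL, and the lower genes took 2.04% in COLD and 5.50% in CONTROL. Each column of means sums to about 1000000, so gains and losses over all genes have to match. The similar shares in each direction are therefore not a separate finding. The scatter of group means shows where the gene groups with the widest departures lay.

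**Figure D1:**
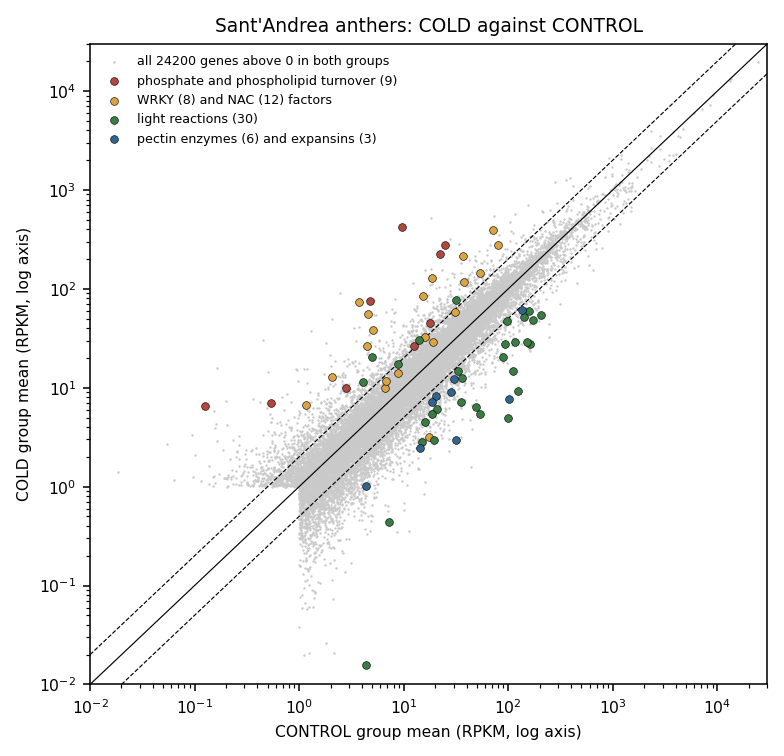
COLD group mean (vertical log axis, RPKM) against CONTROL group mean (horizontal log axis, RPKM) for the S.AND genes above 0 in both groups (3 of 24203 were at 0 in one); the solid line marks equal means and the dashed lines a 2-fold ratio. All 9 phosphate and phospholipid genes lie above the upper dashed line, and all 9 pectin enzyme and expansin genes lie below the lower one.

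The excess of lower genes sat among weakly expressed genes. In the class with 1 to 3 RPKM in the higher group, 18.1% of 4269 genes were at least 2-fold lower and 7.82% at least 2-fold higher. Between 30 and 100 RPKM the shares were 4.05% lower and 4.54% higher over 5772 genes, and between 100 and 1000 RPKM they were 5.29% lower and 6.38% higher over 2023 genes. With a minimum of 10 RPKM, 656 genes were higher (4.56% of 14375) and 772 lower (5.37%), 9.93% in all. The number of gene models above 0 was 38392 in COLD and 40692 in CONTROL, and whether depth had a part in these counts was not tested.

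**Figure D2:**
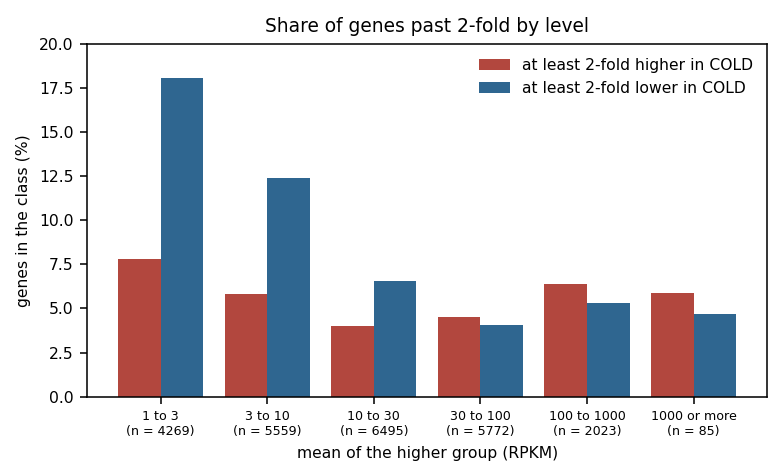
Share of genes at least 2-fold higher (red) and at least 2-fold lower (blue) in COLD, in percent of the genes of each class (vertical axis, from 0), by the mean of the higher group in RPKM (horizontal axis). Lower genes outnumber higher ones below 30 RPKM, and above 30 RPKM the bars are close, with the higher genes slightly ahead.

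Among the most abundant transcripts were those of tapetum genes, which differed by less than 2-fold in the examples named here. OsC6, a lipid transfer protein of the tapetum, was the highest gene of both groups, with 19829 RPKM in COLD and 24571 RPKM in CONTROL. The polyketide synthase gene OsPKS1, of the sporopollenin pathway, had 4117 RPKM in COLD and 4705 RPKM in CONTROL. Other abundant anther genes lay further apart: OsACOS12, the acyl-CoA synthetase of that pathway, had 2297 RPKM in COLD and 4024 RPKM in CONTROL, and RTS had 2263 RPKM in COLD and 1188 RPKM in CONTROL. The 10 highest genes took 8.66% of all RPKM in COLD and 9.55% in CONTROL, and 8 genes were among the 10 highest in both groups. Of 85 genes with at least 1000 RPKM in one group, 9 passed a 2-fold ratio. The largest ratio among these was that of LOC_Os10g36703, a transcript with a conserved upstream reading frame (CPuORF40), with 1205 RPKM in COLD and 281 RPKM in CONTROL. A haloacid dehalogenase-like hydrolase gene (LOC_Os03g16670) had 1264 RPKM in COLD and 354 RPKM in CONTROL. On the lower side, a cytosolic ascorbate peroxidase gene (OsAPx2, LOC_Os07g49400), whose product removes hydrogen peroxide, had 616 RPKM in COLD and 1502 RPKM in CONTROL. These last 3 genes were chosen after their values were seen.

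Genes were next grouped by function. The study describes the products of 1459 genes, 1439 of which were expressed in S.AND, and it describes them because they were called in one cultivar or the other on these samples. These 1439 included 592 genes (41.1%) past 2-fold on the higher side and 554 (38.5%) on the lower side, 79.6% in all, against 3.16% and 7.37% of the 22764 genes with no product text. The counts below that rest on product texts are therefore counts of selected genes, are not independent evidence of their direction, and are to be read against 41.1% and 38.5%. Genes of a family with no product text could not enter its list, so no such count describes a whole family. What the counts show is which functions stood on which side among the described genes. The plot of log2 ratios by list orders them, from phosphate turnover at the upper end to the light-harvesting antenna at the lower end.

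**Figure D3:**
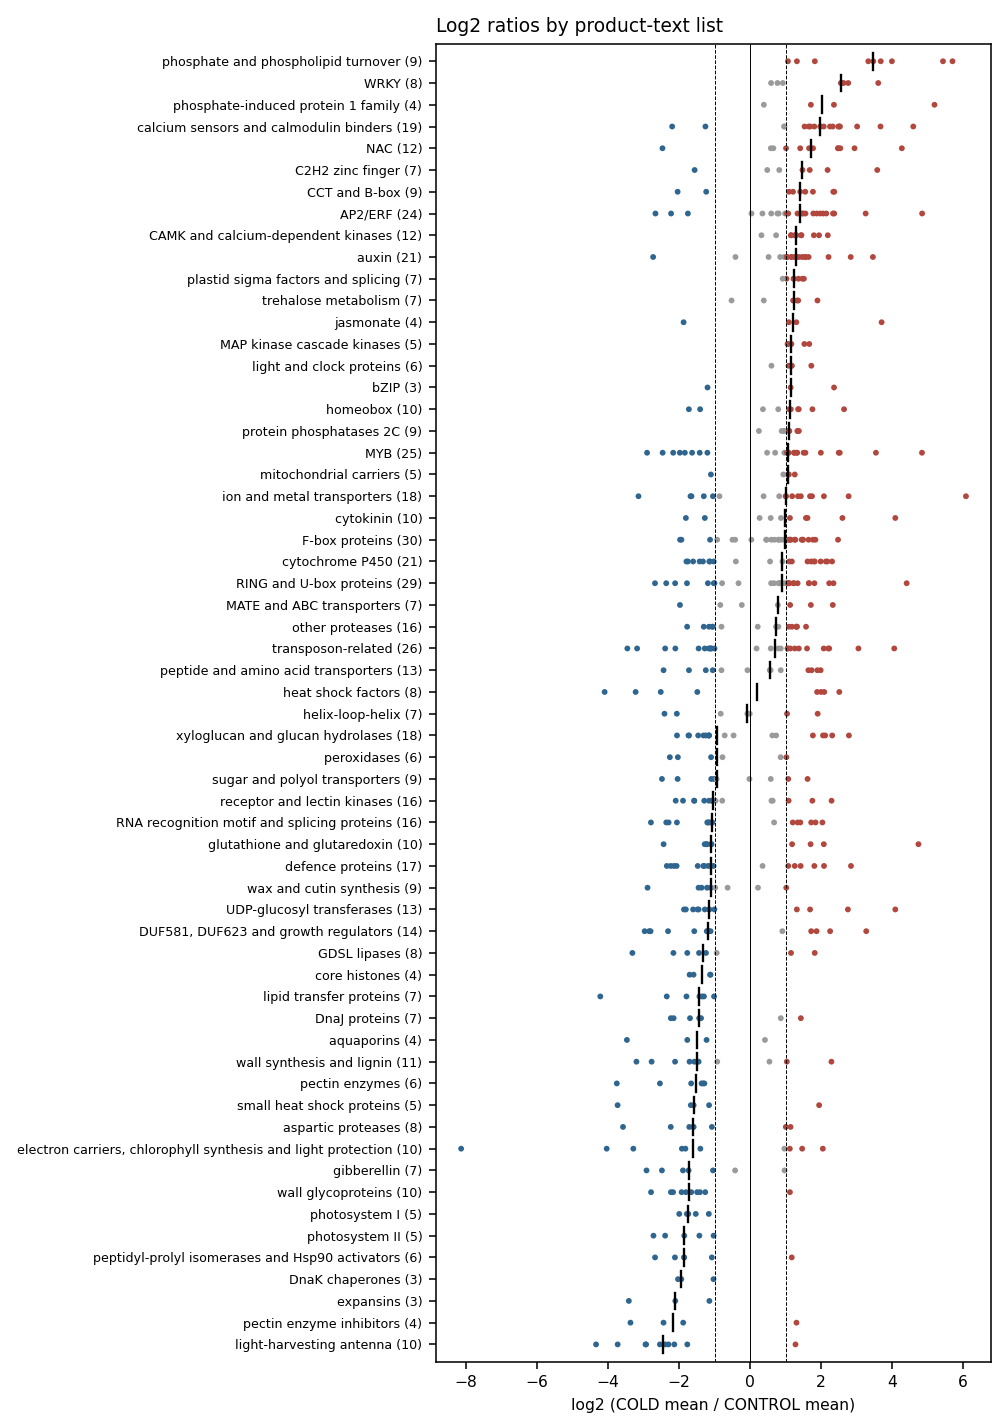
Log2 ratio of COLD over CONTROL (horizontal axis) for each gene of the lists formed from product texts, with the number of genes in brackets; each point is a gene (red, at least 2-fold higher; blue, at least 2-fold lower; grey, between), and the black bar is the list median. Lists run from a median of 3.47 (phosphate and phospholipid turnover) at the top to -2.46 (light-harvesting antenna) at the bottom.

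Genes of phosphate handling formed the group with the highest median. Plants short of phosphate free it from phospholipids and organic esters, replace phospholipids by galactolipids, and read their phosphate status through SPX domain proteins. All 9 described genes of this group were at least 2-fold higher in COLD, with a median log2 ratio of 3.47 and a summed level of 1092 RPKM in COLD against 95.8 RPKM in CONTROL. The phosphoethanolamine/phosphocholine phosphatase gene LOC_Os01g52230, whose enzyme class releases phosphate from lipid head groups, accounted for much of the sum with 418 RPKM in COLD and 9.67 RPKM in CONTROL. A glycerophosphoryl diester phosphodiesterase gene (LOC_Os02g31030) had 76.1 RPKM in COLD and 4.77 RPKM in CONTROL.

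All 4 described genes with an SPX domain were higher, with log2 ratios from 3.33 to 5.70. The most abundant, LOC_Os02g10780, had 277 RPKM in COLD and 25.001 RPKM in CONTROL, and LOC_Os06g40120 had 225 RPKM in COLD and 22.4 RPKM in CONTROL. The other pair was nearly silent in CONTROL: LOC_Os10g25310 had 6.53 RPKM in COLD and 0.125 RPKM in CONTROL, and LOC_Os03g29250 had 6.98 RPKM in COLD and 0.544 RPKM in CONTROL. The remaining members of the group were a galactolipid (monogalactosyldiacylglycerol) synthase, an inorganic phosphate transporter and a purple acid phosphatase, with log2 ratios between 1.07 and 1.82. Genes of the phosphate-induced protein 1 family, named for induction by phosphate in tobacco cells, were also on the higher side in 3 of 4 cases. LOC_Os02g51970 had 184 RPKM in COLD and 35.7 RPKM in CONTROL and its near neighbour LOC_Os02g52040 had 182 RPKM in COLD and 55.4 RPKM in CONTROL, whereas LOC_Os02g52010 between them had 5.56 RPKM in COLD and 4.25 RPKM in CONTROL. Members of this family lie close together on chromosome 2 and may share reads.

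**Figure D4:**
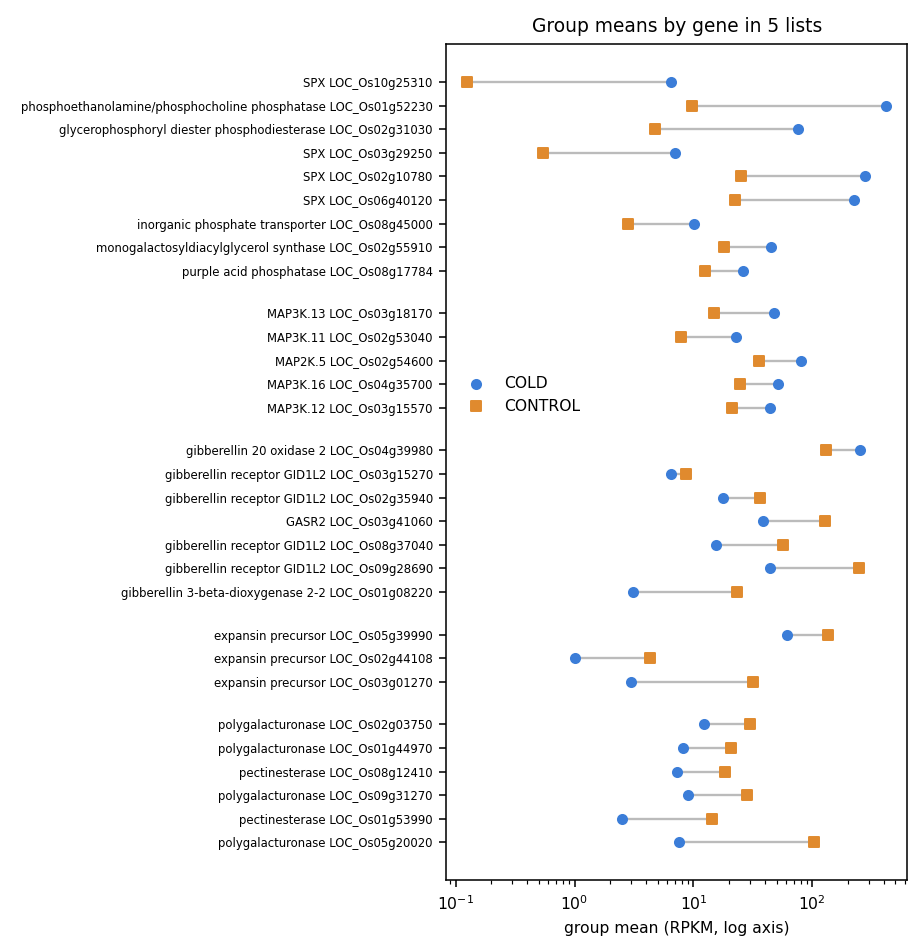
Group means in RPKM (horizontal log axis) for each gene (rows) of 5 lists: phosphate and phospholipid turnover, MAP kinase cascade, gibberellin, expansins and pectin enzymes; blue circles are COLD and orange squares CONTROL, joined by a line for each gene. COLD lies to the right of CONTROL in all 9 phosphate genes and all 5 MAP kinase cascade genes, and to the left in 6 of 7 gibberellin genes, in all 3 expansins and in all 6 pectin enzymes.

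Among the genes with the highest ratios at 10 RPKM or more were several outside any large group. A VQ domain gene (LOC_Os07g48710), of a family of small proteins that bind WRKY factors, had 28.5 RPKM in COLD and 1.79 RPKM in CONTROL. A WW domain gene (LOC_Os11g18940) had 115 RPKM in COLD and 12.2 RPKM in CONTROL, and a growth-regulating factor gene (LOC_Os04g51190) had 155 RPKM in COLD and 16.01 RPKM in CONTROL. Growth-regulating factors promote cell proliferation and organ growth. In contrast, DUF623 and DUF581 genes made up most of the lower members of the same list of growth-related and DUF genes (4 of 14 higher and 9 lower, median -1.18); the DUF623 gene LOC_Os11g05780 had 3.76 RPKM in COLD and 26.9 RPKM in CONTROL. Among genes with no informative product text, LOC_Os03g14440 had 16.02 RPKM in COLD and 0.165 RPKM in CONTROL, and LOC_Os03g54130 had 0.355 RPKM in COLD and 11.2 RPKM in CONTROL. One gene was listed at 0 in CONTROL (LOC_Os05g48400, 6.95 RPKM in COLD) and 2 were listed at 0 in COLD (LOC_Os01g25080, 1.01 RPKM in CONTROL, and LOC_Os04g55490, 1.22 RPKM in CONTROL).

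Signal transduction genes were mostly higher. Calcium that enters the cell in the cold is bound by EF hand proteins and calmodulins, which act on kinases and on transcription factors. Of 19 calcium sensor and calmodulin binding genes, 15 were at least 2-fold higher and 2 lower (median 1.98). An EF hand gene (LOC_Os09g24580) had 62.7 RPKM in COLD and 7.75 RPKM in CONTROL, another (LOC_Os07g43800) had 16.5 RPKM in COLD and 2.85 RPKM in CONTROL, and OsCML25 (LOC_Os11g01390), a calmodulin-like sensor, had 46.1 RPKM in COLD and 8.07 RPKM in CONTROL. The summed level of the group was nearer between the treatments, with 1202 RPKM in COLD and 951 RPKM in CONTROL, because its most abundant member lay on the lower side: OsCML18 (LOC_Os05g13580, chosen after its values were seen) had 292 RPKM in COLD and 698 RPKM in CONTROL.

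Protein kinases of the calcium and MAP kinase pathways stood on one side. Of 12 CAMK and calcium-dependent kinase genes, 10 were higher and 0 lower (median 1.29). The most abundant of them in COLD, LOC_Os02g41580, had 711 RPKM in COLD and 156 RPKM in CONTROL, and LOC_Os04g49510 had 253 RPKM in COLD and 92.8 RPKM in CONTROL. All 5 described kinases of the MAP kinase cascade, 4 MAP3K genes and 1 MAP2K gene, were between 1.06 and 1.67 on the log2 scale. The MAP3K gene LOC_Os03g18170 had 47.8 RPKM in COLD and 15.02 RPKM in CONTROL, and the MAP2K gene LOC_Os02g54600, which acts below such kinases, had 79.5 RPKM in COLD and 35.5 RPKM in CONTROL. Protein phosphatases 2C, which include negative regulators of abscisic acid signalling, gave 5 of 9 higher and 0 lower (median 1.09), with 42.3 RPKM in COLD and 16.3 RPKM in CONTROL for LOC_Os05g29030.

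Receptor kinases stood mostly on the lower side. These membrane proteins perceive ligands outside the cell, and 9 of 16 described genes were lower and 3 higher (median -1.06). The lectin-like receptor kinase gene LOC_Os08g03070 had 4.13 RPKM in COLD and 17.7 RPKM in CONTROL, and a leucine-rich repeat kinase gene (LOC_Os10g38800) had 9.33 RPKM in COLD and 27.8 RPKM in CONTROL. The S-domain receptor kinase gene LOC_Os09g02410 was the opposite case, with 13.4 RPKM in COLD and 2.73 RPKM in CONTROL. The lower share (9 of 16) exceeded the 38.5% of all described genes, and the higher share (3 of 16) lay under their 41.1%.

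Transcription factor genes with a product text were higher in 68 of 113 cases and lower in 24, with a median log2 ratio of 1.21 and summed levels of 7056 RPKM in COLD against 3287 RPKM in CONTROL. All 8 described WRKY genes had a higher mean in COLD (median 2.57). Of these, 5 passed 2-fold, beside 41.1% of all described genes on the higher side. WRKY53 (LOC_Os05g27730), a factor of rice defence responses, had 216 RPKM in COLD and 36.6 RPKM in CONTROL, WRKY45 (LOC_Os05g25770) had 127 RPKM in COLD and 18.7 RPKM in CONTROL, and WRKY7 (LOC_Os05g46020) had 55.3 RPKM in COLD and 4.53 RPKM in CONTROL. The remaining 3 WRKY genes lay between 0.59 and 0.92 on the log2 scale. Of 12 described NAC genes, from a family with many stress regulators, 9 were higher and 1 lower (median 1.72). The most abundant in COLD was LOC_Os01g66120 with 396 RPKM in COLD and 71.2 RPKM in CONTROL, and the one lower member was LOC_Os10g33760 (chosen after its values were seen) with 3.18 RPKM in COLD and 17.6 RPKM in CONTROL.

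AP2/ERF genes gave 15 of 24 higher and 3 lower (median 1.40). A gene for a dehydration-responsive element-binding protein (LOC_Os09g35010), of the class that activates cold-regulated genes, had 79.9 RPKM in COLD and 8.36 RPKM in CONTROL. LOC_Os07g12510 had 102 RPKM in COLD and 20.2 RPKM in CONTROL, and OsERF87 (LOC_Os09g39850) had 14.5 RPKM in COLD and 0.503 RPKM in CONTROL. On the lower side of the family, LOC_Os04g32620, described as an ethylene-responsive factor, had 1.49 RPKM in COLD and 6.95 RPKM in CONTROL. CCT and B-box genes, a family with many regulators of light and flowering time responses, gave 7 of 9 higher and 2 lower (median 1.41), with 86.1 RPKM in COLD and 16.95 RPKM in CONTROL for LOC_Os06g19444. Of 7 C2H2 zinc finger genes, 4 were higher and 1 lower, and the neighbours ZOS3-21 (LOC_Os03g60560) and ZOS3-22 (LOC_Os03g60570) were both among the higher ones, with 59.9 RPKM in COLD and 13.2 RPKM in CONTROL for ZOS3-21 and 40.2 RPKM in COLD and 3.35 RPKM in CONTROL for ZOS3-22.

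The described heat shock factor genes split evenly, 4 of 8 higher and 4 lower, beside 41.1% and 38.5% of all described genes. No listed gene lay between them. As 79.6% of all described genes were past 2-fold, this gap says little about the family. LOC_Os02g13800 had 46.5 RPKM in COLD and 8.13 RPKM in CONTROL and LOC_Os05g45410 had 24.96 RPKM in COLD and 5.86 RPKM in CONTROL, whereas LOC_Os10g28340 had 6.21 RPKM in COLD and 35.5 RPKM in CONTROL and LOC_Os09g35790 had 1.52 RPKM in COLD and 14.2 RPKM in CONTROL. Their median of 0.20 therefore describes no gene of the list, and without LOC_Os08g43334 (0.583 RPKM in COLD and 9.97 RPKM in CONTROL) it was 1.89. MYB genes were also on both sides, 14 of 25 higher and 8 lower (median 1.07). LOC_Os04g49450 had 322 RPKM in COLD and 27.6 RPKM in CONTROL, and LOC_Os06g51260 had 4.81 RPKM in COLD and 35.9 RPKM in CONTROL. Homeobox genes gave 6 of 10 higher and 2 lower (median 1.13), and helix-loop-helix genes 2 of 7 higher and 2 lower (median -0.08).

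Hormone genes differed by hormone. Auxin acts by the degradation of Aux/IAA repressors, which are themselves transcribed in response to auxin. Of 21 auxin genes, 16 were higher and 1 lower (median 1.28). All 8 described Aux/IAA genes had log2 ratios of 0.85 or more, 6 of them past 2-fold. Together they held 879.6 RPKM in COLD against 376 RPKM in CONTROL. OsIAA19 (LOC_Os05g48590) had 84.001 RPKM in COLD and 26.8 RPKM in CONTROL. OsGH3.1 (LOC_Os01g57610), of the enzymes that conjugate auxin to amino acids, had 21.6 RPKM in COLD and 4.67 RPKM in CONTROL, and OsSAUR33 (LOC_Os08g35110) had 58.6 RPKM in COLD and 8.21 RPKM in CONTROL. The 3 auxin-repressed protein genes were higher too, with log2 ratios between 1.28 and 1.47, so genes named for induction and for repression by auxin stood on the same side.

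Gibberellin genes showed the reverse. This hormone promotes pollen wall formation and tapetum function in rice, and 5 of 7 described genes were lower and 0 higher (median -1.73). A gibberellin 3-beta-dioxygenase gene (LOC_Os01g08220), of the class that makes the active hormone, had 3.09 RPKM in COLD and 23.3 RPKM in CONTROL. Genes described as GID1L2, a name given to relatives of the gibberellin receptor, were lower in 3 of 4 cases, with 43.97 RPKM in COLD and 246 RPKM in CONTROL for LOC_Os09g28690 and 15.4 RPKM in COLD and 57.1 RPKM in CONTROL for LOC_Os08g37040. GASR2 (LOC_Os03g41060), a gibberellin-regulated peptide gene, had 38.4 RPKM in COLD and 127 RPKM in CONTROL. The exception was gibberellin 20 oxidase 2 (LOC_Os04g39980, chosen after its values were seen), an earlier enzyme of the pathway, with 254 RPKM in COLD and 129.5 RPKM in CONTROL and a log2 ratio of 0.97.

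Cytokinin genes included response regulators, which relay the cytokinin signal inside the cell. Of 5 response regulator genes, 4 were higher and 0 lower, and LOC_Os09g36220 had 113 RPKM in COLD and 18.6 RPKM in CONTROL. Genes for enzymes that attach glucose to cytokinins lay on both sides: the cis-zeatin O-glucosyltransferase gene LOC_Os04g46980 had 7.196 RPKM in COLD and 0.422 RPKM in CONTROL, and the cytokinin-O-glucosyltransferase gene LOC_Os05g08480 had 32.01 RPKM in COLD and 112 RPKM in CONTROL. Over all 10 cytokinin genes 5 were higher and 2 lower (median 0.997). Of the 4 described jasmonate genes that were expressed in S.AND, 3 were higher and 1 lower. A 12-oxophytodienoate reductase gene (LOC_Os06g11290), of the family that includes jasmonate synthesis, had 15.6 RPKM in COLD and 1.195 RPKM in CONTROL, and the gene described as coronatine-insensitive protein (LOC_Os03g15880), the jasmonate receptor class, had 79.1 RPKM in COLD and 32.05 RPKM in CONTROL. The jasmonate O-methyltransferase gene LOC_Os04g56950, whose product forms the volatile ester, had 4.74 RPKM in COLD and 17.3 RPKM in CONTROL.

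The genes of ethylene synthesis, perception and signalling were taken from lists of the literature, which were not drawn up from these samples. Ethylene is made from ACC by ACC oxidases (ACO), ACC by ACC synthases (ACS), and the hormone acts through ETR and ERS receptors, CTR kinases, EIN2 and EIL factors. Of the 31 listed genes that were expressed in S.AND, 10 were at least 2-fold higher and 0 lower, beside 5.42% and 9.22% of all genes (median log2 ratio 0.49, against 0.00 for all genes). OsACO2, the most abundant ACC oxidase gene, had 74.5 RPKM in COLD and 18.95 RPKM in CONTROL. The ACC synthase gene OsACS6 had 26.9 RPKM in COLD and 20.1 RPKM in CONTROL, within a 2-fold ratio, and 7 of 13 listed synthesis genes were under 1 RPKM in both groups. Without OsACS3, whose CONTROL mean lay under 1 RPKM, the median of the synthesis list was 0.78, against 1.02 with it.

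In the receptor list OsETR3 had 10.6 RPKM in COLD and 2.63 RPKM in CONTROL, while OsERS1, the most abundant receptor, had 111 RPKM in COLD and 89.7 RPKM in CONTROL and a log2 ratio of 0.30. Downstream, the factor OsEIL2 had 202 RPKM in COLD and 85.1 RPKM in CONTROL and OsEIL1 had 3.62 RPKM in COLD and 1.29 RPKM in CONTROL. EIN2 and both EBF genes, which encode F-box proteins that degrade EIL factors, had log2 ratios between 0.47 and 0.68. Among ethylene response factors of the literature, OsERF3 had 249 RPKM in COLD and 63.2 RPKM in CONTROL and Sub1C had 10.9 RPKM in COLD and 2.603 RPKM in CONTROL, but OsEREBP1, the most abundant of that list, had 490.2 RPKM in COLD and 452 RPKM in CONTROL. A further 13 factors had been chosen for their response in ERY, and all 13 had a higher mean in S.AND COLD as well, 5 of them past 2-fold (median 0.92). OsERF64, the most abundant of these, had 735 RPKM in COLD and 291 RPKM in CONTROL.

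**Figure D5:**
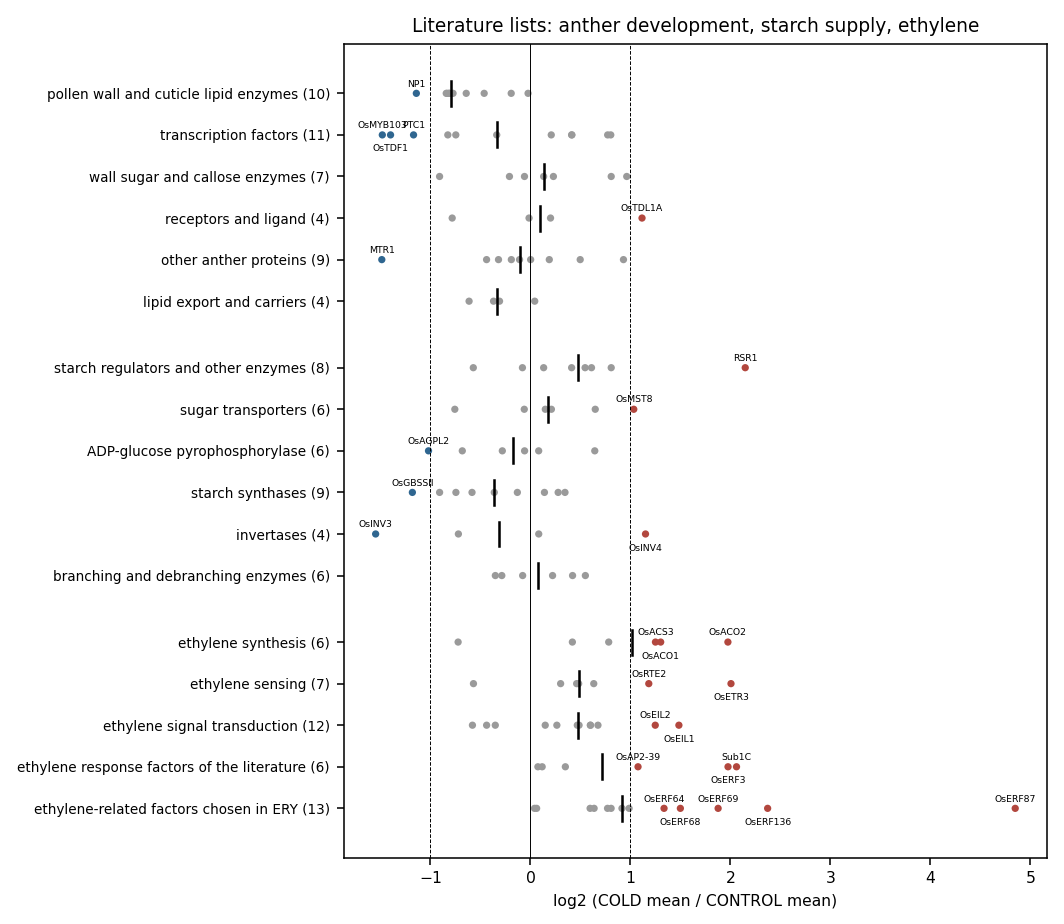
Log2 ratio of COLD over CONTROL (horizontal axis) for genes of lists from the literature, in 3 blocks (anther development, starch and sugar supply, ethylene), plus 13 ethylene-related factors chosen in ERY; colours as in the plot by product-text list, black bars are medians, numbers in brackets count expressed genes, and genes past a 2-fold ratio are named. Pollen wall lipid enzymes lie left of 0 (WDA1 only just, at -0.02), ethylene lists mostly right of 0, and starch lists on both sides.

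The described genes of the light reactions stood mostly on the lower side. The antenna proteins bind chlorophyll and pass energy to photosystems I and II, whose nuclear-encoded subunits are imported into the chloroplast. Of 20 described antenna and photosystem genes, 19 were at least 2-fold lower and 1 higher, beside 38.5% and 41.1% of all described genes. The 20 genes had a median log2 ratio of -2.06 and a summed level of 446 RPKM in COLD against 1619 RPKM in CONTROL. Antenna genes had the widest ratios, with 4.96 RPKM in COLD and 100.4 RPKM in CONTROL for LOC_Os07g37240 and 6.38 RPKM in COLD and 49.2 RPKM in CONTROL for LOC_Os06g21590. The 1 antenna gene on the other side was LOC_Os01g41710 (chosen after its values were seen), with 76.8 RPKM in COLD and 31.6 RPKM in CONTROL. In photosystem I, the subunit XI gene LOC_Os12g23200 had 29.3 RPKM in COLD and 117 RPKM in CONTROL. In photosystem II, the gene of oxygen-evolving enhancer protein 1 (LOC_Os01g31690) had 48.1 RPKM in COLD and 174 RPKM in CONTROL.

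Chlorophyll synthesis and electron transfer genes were also among the lower ones. The magnesium-protoporphyrin monomethyl ester cyclase gene LOC_Os01g17170 had 5.49 RPKM in COLD and 53.6 RPKM in CONTROL, protochlorophyllide reductase A (LOC_Os04g58200) had 54.6 RPKM in COLD and 207 RPKM in CONTROL, and PGR5 (LOC_Os08g45190), a protein of cyclic electron flow, had 4.54 RPKM in COLD and 16.05 RPKM in CONTROL. The early light-induced protein gene LOC_Os07g08150, chosen after its values were seen, had the lowest log2 ratio of the expressed genes in these lists (-8.14), with 0.0156 RPKM in COLD and 4.39 RPKM in CONTROL. Of the 10 genes in this list 6 were lower and 3 higher, and among the 8 with at least 10 RPKM the median was -0.22, against -1.61 over all 10. One of the higher genes was the low photochemical bleaching 1 gene LOC_Os05g39230, with 20.4 RPKM in COLD and 4.93 RPKM in CONTROL.

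Nuclear genes that act in plastid gene expression stood on the opposite side to the photosystems. Sigma factors direct the bacterial-type plastid RNA polymerase to promoters. All 4 described sigma factor genes were higher, by 1.22 to 1.52 on the log2 scale. LOC_Os08g14450, the most abundant, had 39.9 RPKM in COLD and 17.1 RPKM in CONTROL, and LOC_Os05g51150 had 17.9 RPKM in COLD and 6.25 RPKM in CONTROL. A gene for a plastid group IIA intron splicing factor (LOC_Os05g47850) had 33.2 RPKM in COLD and 12.9 RPKM in CONTROL. Over the 7 genes of this list 6 were higher and 0 lower (median 1.24). Light and clock genes were likewise higher in 5 of 6 cases, with 126 RPKM in COLD and 38.2 RPKM in CONTROL for GIGANTEA (LOC_Os01g08700), a clock protein, and 58.8 RPKM in COLD and 26.6 RPKM in CONTROL for COP1 (LOC_Os02g53140), a repressor of light responses. Samples were taken at 1 time of day only.

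Markers of the tissue put the photosynthetic genes in context. The 10 markers of the anther and its tapetum were picked from the 45 anther development genes, of which 5 were at least 2-fold lower and 1 higher. Those past 2-fold, such as the tapetum factors OsTDF1 and OsMYB103, were not among the 10. All 10 markers were expressed, at 169 RPKM or more in COLD and 299.8 RPKM or more in CONTROL. Their log2 ratios lay between -0.83 and 0.93, with a median of -0.34 and none past 2-fold. Antenna and photosystem genes had lower levels than every one of these markers in both groups. Their levels ran from 2.85 to 76.8 RPKM in COLD and from 14.95 to 174 RPKM in CONTROL. As the 10 markers were all abundant, this order rests on their choice. OsTDF1 (19.7 RPKM in CONTROL) and OsMYB103 (31.2 RPKM in CONTROL) lay within the CONTROL range of the antenna and photosystem genes. Antenna and photosystem genes are expressed in green anther wall layers and in lemma, palea and leaf. Whether a difference in carried-over green tissue had a part in their ratios was not tested.

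Cell wall genes were lower in 37 of 52 described cases and higher in 9, with a median log2 ratio of -1.43. Expansins loosen walls, and polygalacturonases and pectinesterases remodel pectin. All 9 described genes of these kinds were at least 2-fold lower, with a summed level of 112 RPKM in COLD against 386 RPKM in CONTROL. The expansin gene LOC_Os05g39990 had 61.3 RPKM in COLD and 136 RPKM in CONTROL, and the expansin gene LOC_Os03g01270 had 2.96 RPKM in COLD and 31.6 RPKM in CONTROL. The polygalacturonase gene LOC_Os09g31270 had 9.01 RPKM in COLD and 28.5 RPKM in CONTROL, and the pectinesterase gene LOC_Os01g53990 had 2.48 RPKM in COLD and 14.4 RPKM in CONTROL. Inhibitors of pectin enzymes were on the same side: 3 of 4 were lower, among them polygalacturonase inhibitor 3 (LOC_Os04g58080) with 2.27 RPKM in COLD and 12.3 RPKM in CONTROL, and only polygalacturonase inhibitor 1 (LOC_Os09g31450) was higher, with 12.7 RPKM in COLD and 5.12 RPKM in CONTROL.

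Wall glycoproteins were lower in 9 of 10 cases (median -1.73). A gene described as classical arabinogalactan protein 26 (LOC_Os01g71170) had 1.297 RPKM in COLD and 8.97 RPKM in CONTROL, a pollen Ole e I and extensin family gene (POEI18, LOC_Os09g32988) had 3.98 RPKM in COLD and 17.9 RPKM in CONTROL, and the anther-specific proline-rich protein gene LOC_Os03g54050 had 21.1 RPKM in COLD and 73.9 RPKM in CONTROL. In lignin and wall synthesis 7 of 11 genes were lower, with 3.33 RPKM in COLD and 22.8 RPKM in CONTROL for the laccase gene LOC_Os12g01730, but phenylalanine ammonia-lyase (LOC_Os02g41680), the entry enzyme of phenylpropanoid synthesis, was higher with 10.4 RPKM in COLD and 2.12 RPKM in CONTROL.

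The family of glycosyl hydrolases 16, which includes the enzymes that cut and rejoin xyloglucan, ran against the rest of the wall genes. Of 6 described members, 4 were higher and 1 lower (median 1.91), and their summed level was 1837 RPKM in COLD against 618 RPKM in CONTROL. The largest part came from LOC_Os06g48200, with 1331 RPKM in COLD and 390.1 RPKM in CONTROL. LOC_Os04g51460 had 280.1 RPKM in COLD and 67.4 RPKM in CONTROL and LOC_Os06g48160 had 143 RPKM in COLD and 28.8 RPKM in CONTROL. Of the 12 other glucan, mannan and xylan hydrolase genes in the list, 8 were lower and 1 higher (median -1.21). The summed level of all 52 wall genes, with this family as its largest part in COLD, was 3021 RPKM in COLD and 2915 RPKM in CONTROL.

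Lipid and cuticle genes were lower in 17 of 24 described cases and higher in 3 (median -1.32), with a summed level of 2615 RPKM in COLD against 5418 RPKM in CONTROL. The anther surface is covered by cutin and wax, and several of these genes were abundant. Wax synthase isoform 3 (LOC_Os01g46270) had 452 RPKM in COLD and 1165 RPKM in CONTROL, and a glycerol-3-phosphate acyltransferase gene (LOC_Os01g63580), of a class that starts cutin monomer assembly, had 255 RPKM in COLD and 698 RPKM in CONTROL. A HOTHEAD gene (LOC_Os08g31030), named for an Arabidopsis mutant with fused flower organs, had 14.6 RPKM in COLD and 108 RPKM in CONTROL, and a WAX2 gene (LOC_Os02g08230) had 149 RPKM in COLD and 344 RPKM in CONTROL. All 7 described lipid transfer protein genes were lower, with 18.3 RPKM in COLD and 46.7 RPKM in CONTROL for LTPL60 (LOC_Os06g12440). OsC6 and OsC4, abundant lipid transfer protein genes of the anther development list, did not pass 2-fold. Their log2 ratios were -0.31 for OsC6 and -0.37 for OsC4. Of 8 GDSL lipase genes 5 were lower and 2 higher, with 170.4 RPKM in COLD and 461 RPKM in CONTROL for LOC_Os02g40440 and 70.1 RPKM in COLD and 313 RPKM in CONTROL for LOC_Os03g62740.

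The established genes of anther development are a list not drawn up from these samples. Of 45 genes, 5 were at least 2-fold lower and 1 higher, beside 9.22% and 5.42% of all genes, and 29 of the 45 had a lower mean in COLD (median -0.21). In the set of 10 pollen wall and cuticle lipid enzymes, all 10 had lower means in COLD, with a median log2 ratio of -0.79. The means of WDA1 were nearly equal, with 407 RPKM in COLD and 414 RPKM in CONTROL. Only NP1, with 35.7 RPKM in COLD and 78.7 RPKM in CONTROL, passed 2-fold. CYP704B2, a fatty acid hydroxylase, had 1951 RPKM in COLD and 3471 RPKM in CONTROL. OsTKPR2, a tetraketide reductase of the sporopollenin pathway, had 535 RPKM in COLD and 914 RPKM in CONTROL. The summed level of the 10 enzymes was 11579 RPKM in COLD against 17083 RPKM in CONTROL.

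Among the 11 regulators of that list 3 were lower and 0 higher. PTC1, a PHD finger factor of tapetum and pollen development, had 16.4 RPKM in COLD and 36.998 RPKM in CONTROL, OsTDF1, a MYB factor of the tapetum, had 7.45 RPKM in COLD and 19.7 RPKM in CONTROL, and OsMYB103, another, had 11.2 RPKM in COLD and 31.2 RPKM in CONTROL. CSA, a MYB factor of sugar partitioning to the anther, had 513 RPKM in COLD and 386 RPKM in CONTROL, within a 2-fold ratio. In the remaining lists MTR1, a fasciclin glycoprotein gene near the expression minimum, was lower with 0.474 RPKM in COLD and 1.33 RPKM in CONTROL, and the peptide ligand OsTDL1A was higher with 7.76 RPKM in COLD and 3.58 RPKM in CONTROL. Callose synthase GSL5, which lays down the callose around meiocytes, had 162 RPKM in COLD and 139 RPKM in CONTROL.

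Starch and sugar supply genes, also a list of the literature, were balanced around 0. Of 39 expressed genes, 3 were higher and 3 lower, close to the shares of all genes, and the median log2 ratio was 0.08. RSR1, an AP2/EREBP regulator known to repress starch synthesis genes in rice seed, had the largest ratio with 74.6 RPKM in COLD and 16.8 RPKM in CONTROL. Starch synthases gave 1 lower gene of 9, OsGBSSII with 16.3 RPKM in COLD and 37.03 RPKM in CONTROL, and ADP-glucose pyrophosphorylase gave 1 of 6, OsAGPL2 with 8.23 RPKM in COLD and 16.7 RPKM in CONTROL. The abundant subunits of that enzyme lay nearer to 1, with 129.8 RPKM in COLD and 158 RPKM in CONTROL for OsAGPS1. Invertases, which split the sucrose that reaches the anther, differed between members: OsINV3 had 79.1 RPKM in COLD and 231 RPKM in CONTROL, and OsINV4 had 26.1 RPKM in COLD and 11.8 RPKM in CONTROL. The monosaccharide transporter gene OsMST8 had 118 RPKM in COLD and 57.9 RPKM in CONTROL, whereas OsMST7 beside it had 452 RPKM in COLD and 408 RPKM in CONTROL.

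Trehalose metabolism genes, a list of enzymes described as synthases plus 1 trehalase, which breaks trehalose down, were higher in 5 of 7 described cases and lower in 0 (median 1.24); LOC_Os09g23350, described as a trehalose synthase, had 82.03 RPKM in COLD and 32.03 RPKM in CONTROL. Among described sugar transporters, the plastidic glucose transporter 1 gene LOC_Os09g27900 had 79.9 RPKM in COLD and 25.98 RPKM in CONTROL, and a nodulin MtN3 family gene (LOC_Os12g29220), of the family of sugar exporters, had 4.33 RPKM in COLD and 24.2 RPKM in CONTROL. That list had 2 of 9 higher and 4 lower.

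Ion and metal transporters gave 10 of 18 higher and 5 lower (median 1.01). A plasma membrane calcium-transporting ATPase gene (LOC_Os10g28240), which pumps calcium out of the cytosol, had 18.5 RPKM in COLD and 2.699 RPKM in CONTROL. A heavy metal transport and detoxification gene (LOC_Os04g57200) had 46.4 RPKM in COLD and 13.8 RPKM in CONTROL, and a heavy metal-associated domain gene (LOC_Os01g61070) had 1.54 RPKM in COLD and 13.6 RPKM in CONTROL. Aquaporins conduct water across membranes, and 3 of 4 described genes were lower and 0 higher (median -1.50). The abundant LOC_Os02g13870 had 383 RPKM in COLD and 896 RPKM in CONTROL and LOC_Os04g47220 had 175 RPKM in COLD and 597 RPKM in CONTROL, while LOC_Os06g22960 had 184 RPKM in COLD and 137.3 RPKM in CONTROL. Mitochondrial carriers were higher in 3 of 5 cases, and the amino acid transporter gene LOC_Os02g44980 had 193 RPKM in COLD and 48.7 RPKM in CONTROL.

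The described chaperone genes were lower in 17 of 21 cases and higher in 3, beside 38.5% and 41.1% of all described genes. These 21 genes had a median log2 ratio of -1.67 and a summed level of 370 RPKM in COLD against 941.5 RPKM in CONTROL. Chaperones fold or hold other proteins, and many are induced by heat. Of 5 described small heat shock protein genes 4 were lower, with 24.8 RPKM in COLD and 78.9 RPKM in CONTROL for LOC_Os03g15960. Only LOC_Os02g10710 was higher, with 10.8 RPKM in COLD and 2.81 RPKM in CONTROL. Of 7 described DnaJ genes 5 were lower, with 9.89 RPKM in COLD and 46.5 RPKM in CONTROL for LOC_Os03g18870. The activator of Hsp90 ATPase gene LOC_Os02g04650 had 4.19 RPKM in COLD and 26.8 RPKM in CONTROL, and a peptidyl-prolyl isomerase gene (LOC_Os02g28980) had 20.01 RPKM in COLD and 72.5 RPKM in CONTROL.

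Proteases, redox enzymes and defence genes were on both sides. Aspartic proteases were lower in 6 of 8 cases (median -1.60), with 27.9 RPKM in COLD and 131 RPKM in CONTROL for LOC_Os01g04710 and 61.3 RPKM in COLD and 186 RPKM in CONTROL for a nepenthesin-type gene (LOC_Os04g37570). Other proteases gave 6 of 16 higher and 5 lower, and 3 of the higher ones were a C-terminal processing peptidase (OsCttP2, LOC_Os02g57060), a rhomboid (OsRhmbd17, LOC_Os10g37760) and a Deg protease (OsDegp6, LOC_Os05g05480), with log2 ratios of 1.58 for OsCttP2, 1.32 for OsRhmbd17 and 1.31 for OsDegp6. Cytochrome P450 genes gave 10 of 21 higher and 8 lower (median 0.91), near the shares of all described genes. Of the 5 with the widest ratios, 3 were described as P450 72A1, among them LOC_Os03g25490 with 133 RPKM in COLD and 30.2 RPKM in CONTROL. Glutathione, glutaredoxin and thioredoxin genes gave 4 of 10 higher and 6 lower, with 183 RPKM in COLD and 56.2 RPKM in CONTROL for the glutaredoxin OsGrx_I1 (LOC_Os01g47760) and 103 RPKM in COLD and 249 RPKM in CONTROL for a glutathione S-transferase (LOC_Os05g34150). Among defence genes, 10 of 17 were lower and 6 higher: the defensin gene DEF7 (LOC_Os02g41904) had 154 RPKM in COLD and 647 RPKM in CONTROL, and a thaumatin gene (LOC_Os08g43510), of a family of antifungal proteins, had 104 RPKM in COLD and 24.6 RPKM in CONTROL.

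The described genes for protein ubiquitination were higher about as often as all described genes, and lower less often. F-box proteins select the targets of SCF ubiquitin ligases. Of the 30 described F-box genes that were expressed in S.AND, 13 were higher and 3 lower (median 0.98). OsFBX235 (LOC_Os07g26000) had 119 RPKM in COLD and 34.9 RPKM in CONTROL, and the kelch repeat gene OsFBK16 (LOC_Os06g39370) had 77.7 RPKM in COLD and 21.7 RPKM in CONTROL. RING and U-box ligase genes gave 13 of 29 higher and 7 lower, with 60.8 RPKM in COLD and 12.96 RPKM in CONTROL for a U-box gene (LOC_Os02g34410) and 24.5 RPKM in COLD and 157 RPKM in CONTROL for a C3HC4 RING gene (LOC_Os01g50750). The shares of higher F-box genes and of higher RING and U-box genes were close to the 41.1% of all described genes. The lower shares of both lists lay under 38.5%.

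RNA-binding and splicing genes divided as well, 6 of 16 higher and 9 lower (median -1.08). The gene of pre-mRNA splicing factor SF2 (LOC_Os01g21420), which helps to define splice sites, had 4.19 RPKM in COLD and 21.5 RPKM in CONTROL, and the RNA recognition motif gene LOC_Os02g03040 had 145 RPKM in COLD and 35.4 RPKM in CONTROL. The widest ratio was that of splicing factor U2AF (LOC_Os09g31482), which recognises the 3′ end of introns, with 23.3 RPKM in COLD and 161 RPKM in CONTROL. All 4 described core histone genes were lower, with 140.02 RPKM in COLD and 306 RPKM in CONTROL for the most abundant (LOC_Os09g38020). Transposon-related genes were balanced, 11 of 26 higher and 11 lower.

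U2AF was also among the qRT-PCR targets, for which the ubiquitin gene OsUBQ (LOC_Os02g06640) and NABP (LOC_Os06g11170) served as reference genes. The primers mark which transcripts are meant, and all are given 5′ to 3′ in lower case from the study's primer table, with U2AF on chromosome 9 and OsUBQ on chromosome 2:
U2AF forward: aagtacggcgagatcgagag
U2AF reverse: tgatcctcctccctgaattg
OsUBQ forward: gagcctctgttcgtcaagta
OsUBQ reverse: actcgatggtccattaaacc
In the table OsUBQ had 1128 RPKM in COLD and 2191 RPKM in CONTROL, a log2 ratio of -0.96, and NABP had 36.03 RPKM in COLD and 42.7 RPKM in CONTROL, a log2 ratio of -0.24. The log2 ratio of U2AF was -2.79 on the RPKM scale, -1.83 relative to OsUBQ, -2.55 relative to NABP and -2.19 relative to the mean log2 of both. Of the other genes chosen for qRT-PCR on these samples, OsFAD3, whose product desaturates fatty acids, had 423 RPKM in COLD and 278 RPKM in CONTROL, and MARbp was under 0.1 RPKM in both groups.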

How the data were processed

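Anthers of 2 rice cultivars, 12 samples in 4 groups, were sequenced by the authors as TruSeq mRNA libraries with single-end reads. Reads were mapped by the authors to the MSU7.0 gene models in CLC Genomics Workbench, and the deposited table holds 1 mean RPKM (a read density per length of transcript) for each group, normalised by total reads. Each column of means sums to about 1000000, so a value is a share of the transcript pool and a larger share of some genes lowers that of others. Another 4 columns hold the authors' own fold changes and FDR values and were not used. No column holds values per sample (0 columns), so replicate spread could not be computed and no test was run from these values. The table gives neither the read depth of a sample nor the precision of a mean.

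From the means, log2 ratios of S.AND COLD over S.AND CONTROL were computed with no pseudocount for genes of at least 1 RPKM in either group, and a 2-fold ratio was counted as a call. Gene names and products came from the study's lists, because only 1 identifier matched the reference table of names. Product texts of the kind "expressed protein", hypothetical or transposon protein were treated as uninformative for naming single genes. No coordinates are given. Near-identical copies can share short reads, and the counting may have split them.

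Genes were named from those that a rule admits. It admits the 12 highest and 12 lowest ratios among described genes of at least 10 RPKM, and 8 each way at 100 RPKM. Also admitted are the 10 highest means and up to 5 of the widest ratios of each product-text list at 5 RPKM. Any gene of the literature lists and at most 2 others each way complete the rule. Not every admitted gene is named, so the named genes are not a full list of the extremes. Genes outside the rule are marked where they appear. The members, lists and rule were chosen with earlier results of these data known. Alternatives were other minima, pseudocounts of 1 and 0.1, folds of 1.5 and 3, and other scalings. The computation was tested on simulated data. Python 3.11.15, NumPy 2.4.6, pandas 2.3.3 and Matplotlib 3.10.9 were used.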

Additional observations from a re-analysis of the deposited data

How the results depend on the processing

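The number of genes past the fold depended on the minimum level and on the fold. With at least 10 RPKM in the higher group, 656 genes were higher and 772 lower in COLD. With no minimum the counts were 3238 higher and 5008 lower, and with at least 1 RPKM in both groups 1451 were lower. With 1 RPKM added to each mean, 846 were higher and 1208 lower. A fold of 1.5 gave 3098 higher and 4522 lower, and a fold of 3 gave 491 higher and 826 lower. Rescaling moved neither count by over 1.5 times, and the share of called genes that were higher lay between 30.3% (upper quartile) and 45.9% (10 RPKM). The upper quartile shifted all log2 ratios by -0.08. Of 79 list medians and the median of all genes, 1 changed sign while called: the bZIP list of 3 genes, with 1.14, had -0.027 over the 2 genes of at least 10 RPKM. Replicates could not be left out, since the table holds group means only, and no value here carries an error. No paired analysis was possible because the table has 1 mean for each group and no column for a replicate.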

Other observations

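Some called genes lay next to each other on a chromosome. Among genes of at least 10 RPKM, 35 of the 656 higher genes lay in 17 runs of adjacent loci called the same way, and 47 of the 769 lower genes with a chromosomal locus name lay in 23 such runs. The longest run held 3 genes in each direction. Adjacency was judged among all gene models with a chromosomal locus name. The number of runs to be found without regard to position was not computed, so these counts cannot be called few or many.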
